A study of Rattus norvegicus with 3 samples.

Results

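Sarcomere and Z-disc genes were followed in cardiomyocyte nuclei of dystrophin-mutant rat hearts. The list held 39 genes of the thin filament, the thick filament, the Z-disc, the M-band and the factors that assemble or degrade them. Of these, 36 were matched by symbol among the 22250 rat genes counted, and the other 3, Tcap, Palld and Murc, were not matched by symbol. Murc is an older name of Cavin4, whose values are given apart from those of the members. The 36 members were counted in 4555 cardiomyocyte-like nuclei, of 24664 nuclei in all.

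Nuclei came from the heart apex of Sprague Dawley rats at 12 months of age, with 1 library for each of 3 genotypes. WT rats were wild-type. BMD rats (line R-BMDdel45-47) lack the stretch from exon 45 to exon 47 in the dystrophin gene Dmd, a loss made with CRISPR/Cas9 that keeps the reading frame. DMD rats (line R-DMDdel52) lack exon 52, as the name of the line gives it. The deletions are constitutive, so every cell type carries them, and the number of animals behind each library is not given in the sources used here. The question was how the messages of the contractile apparatus stood in each dystrophin genotype. With 1 library per genotype there was no replicate and no test: every interval below is at 95%, covers counting error only, and leaves out variation between animals.

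The sarcomere is the contractile unit of striated muscle. Thin filaments of actin, tropomyosin and troponin are anchored in the Z-disc and slide past thick filaments of myosin, which the M-band holds in register. Calcium binding to troponin moves tropomyosin and opens the myosin sites on actin. Dystrophin links the actin cytoskeleton below the membrane to the extracellular matrix, and the Z-disc is tied to the membrane at the costamere, where mechanical load is passed on. Z-disc proteins also take part in the sensing of stretch.

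The counts used held 21609238 unique molecular identifiers (UMIs) for the WT library, 21142346 for BMD and 19215994 for DMD. The cardiomyocyte-like nuclei were 2008 of WT (20.2% of its nuclei), 1498 of BMD (22.0%) and 1049 of DMD (13.3%), with a median of 2751, 3729 and 3210 UMIs. Members were kept out of both the clustering and the naming. The cluster raised 11 of 11 cardiomyocyte markers found in the files, among them the calcium release channel gene Ryr2 at 15736, 15845 and 13939 CPM (WT, BMD, DMD). CPM, the scale of every level here, is UMIs per 1000000 UMIs of these nuclei. Of the skeletal muscle markers, the fast troponin C gene Tnnc2 had 0, 1 and 0 UMIs and the fast myosin gene Myh4 4, 2 and 0. Tnni2 had 0, 1 and 2 UMIs, and Actn3 had 7, 3 and 9. Mybpc2 was not near 0, with 43, 88 and 48 UMIs. Its level was 6.888 CPM in WT, 13.91 in BMD and 12.76 in DMD, higher in both mutants. The targeted gene Dmd stood at 16556, 20962 and 19637 CPM. Small deletions leave most of its transcript countable, so this value did not check the labels. Between libraries, 12 to 20 nuclei had a barcode in common.

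Together the 36 members made up 4.51% (WT), 4.96% (BMD) and 5.20% (DMD) of the UMIs in cardiomyocyte-like nuclei. Their summed level was 45130 CPM for WT (interval 44964 to 45297), 49592 for BMD (49419 to 49766) and 52008 for DMD (51778 to 52239). Per nucleus, the median share was 4.54% for WT, 5.02% for BMD and 5.24% for DMD, and the lower quartile was 4.12%, 4.53% and 4.73%. The upper quartile was 5.48% for BMD and 5.72% for DMD. The summed level was therefore lowest in WT and highest in DMD, while the lower quartile of BMD lay at the WT median, so that single nuclei overlapped between libraries. The sum does not show an even rise of all members. Pdlim5 alone was at 2238, 3999 and 5127 CPM (WT, BMD, DMD) and Pdlim3 at 1280, 1544 and 2449 CPM, whereas Mlip fell from 3141 to 2611 and 2181 CPM. In endothelial-like nuclei, which have no sarcomeres, the same genes summed to 3989, 5330 and 4489 CPM. Free RNA, meaning RNA outside nuclei that enters every droplet, was estimated to give 4.79% (WT), 7.74% (BMD) and 5.21% (DMD) of the UMIs in cardiomyocyte-like nuclei.

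A member was called higher or lower when the log2 ratio of its CPM between 2 libraries was past 0.32 in either direction (at least 25% higher or 20% lower). This limit is called the fold limit below. Members with at least 50 UMIs over the 3 libraries entered the counts. That left 34 members, without Tnnt3 and Lmod2, among 10043 genes. In BMD over WT, 7 of 34 members (20.6%) were higher, beside 16.3% of all genes, and 1 (2.94%) was lower, beside 25.1% of all genes. In DMD over WT, 9 members (26.5%) were higher, beside 20.2% of all genes, and 2 (5.88%) were lower, beside 23.6%. The shares of higher members were a little above those of all genes, whereas lower members made up a smaller share than lower genes did. Members were chosen with earlier results of these data known. Their shares are therefore a description and cannot be read as an enrichment or a depletion. The median log2 ratio of members was 0.12 in BMD over WT and 0.20 in DMD over WT, beside -0.08 and -0.03 over all genes. Among the 3069 genes with at least 1000 UMIs, a limit chosen after the data were seen, 6 of 32 members (18.8%) were higher in BMD, beside 11.5% of genes, and 8 of 32 in DMD, beside 12.9%. Of the same 32, 1 was lower in BMD, beside 17.3% of genes, and 2 in DMD, beside 20.4%, while in DMD over BMD 3 were higher, beside 7.82%, and 1 lower, beside 10.2%. Both comparisons use the same WT library, so an unusual WT value would move them together.

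Of the 34 members, 4 were past the fold limit in both mutant libraries, all higher: Tpm2, Myl3, Pdlim5 and Flnc. These 4 of 34 stand beside 10.8% of all genes higher in both, and no member was lower in both, beside 14.0% of all genes. Past the fold in BMD and not in DMD were Tnni3, Des and Myom2 on the higher side and Mylk3 on the lower side, beside 4.88% and 9.82% of all genes. Past it in DMD and not in BMD were Myo18b, Myoz2, Pdlim3, Unc45b and Trim55 on the higher side and Cmya5 and Mlip on the lower side, beside 8.10% and 9.04% of all genes. Of these 11 members, Pdlim3, Trim55 and Cmya5 were also past it in DMD over BMD, and the other 8 lay inside it there. The other 19 members stayed within the fold in both comparisons, beside 41.5% of all genes.

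**Figure D1:**
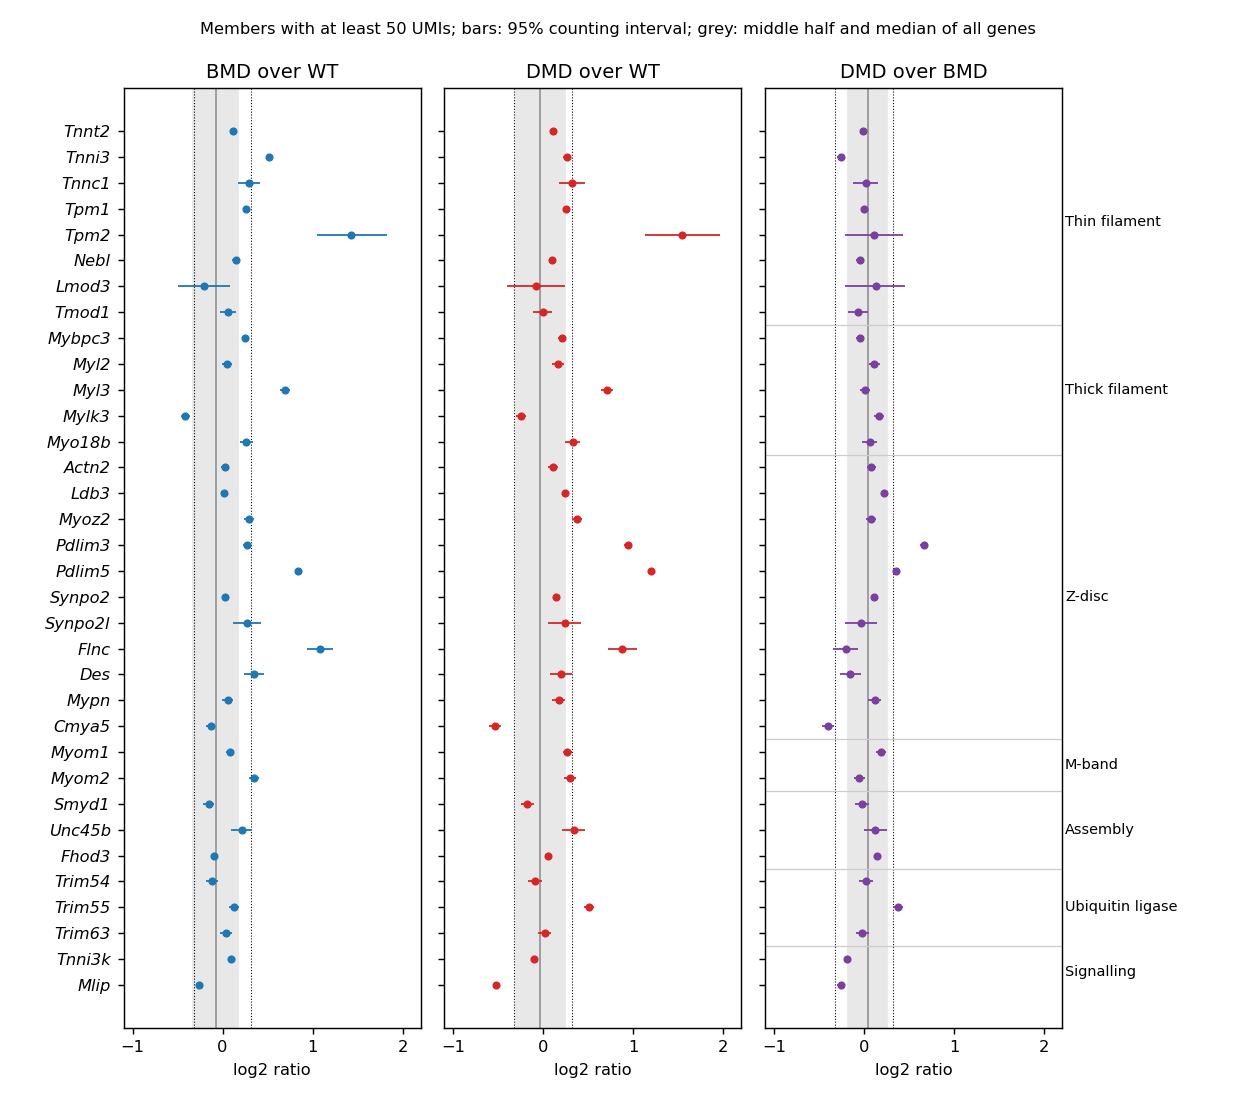
Log2 ratios of the 34 members with at least 50 UMIs, by role, for BMD over WT, DMD over WT and DMD over BMD. Points are ratios of CPM in cardiomyocyte-like nuclei, bars are 95% counting intervals, dotted lines mark the fold limit (0.32), and grey shows the interquartile range and median of all 10043 genes. Tpm2, Flnc, Pdlim5 and Myl3 stand to the right in both comparisons with WT, and Pdlim3 stands apart in DMD.

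Upstream sequences are shown for the 3 members with the largest ratio nearer 0 in both comparisons with WT and for Mylk3, which was among the lowest 3 of that order with Mlip and Smyd1, to set genes that were higher beside one that was lower. Each is the 250 bases before the transcript start in RefSeq (build GRCr8), read 5′ to 3′ on the strand of the gene. Capitals mark MCAT elements (CATTCC, bound by TEAD factors) and GATA motifs (GATAA) on either strand. Coordinates are chr5:62575727-62575976 (minus strand) for Tpm2, chr4:58999297-58999546 (plus) for Flnc, chr2:233793477-233793726 (minus) for Pdlim5 and chr19:37881745-37881994 (plus) for Mylk3.
Tpm2: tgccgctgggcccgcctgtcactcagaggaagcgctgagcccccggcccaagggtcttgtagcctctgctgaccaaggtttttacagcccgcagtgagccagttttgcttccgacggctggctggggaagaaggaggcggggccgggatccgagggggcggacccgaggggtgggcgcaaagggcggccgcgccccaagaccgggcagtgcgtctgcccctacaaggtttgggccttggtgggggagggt
Flnc: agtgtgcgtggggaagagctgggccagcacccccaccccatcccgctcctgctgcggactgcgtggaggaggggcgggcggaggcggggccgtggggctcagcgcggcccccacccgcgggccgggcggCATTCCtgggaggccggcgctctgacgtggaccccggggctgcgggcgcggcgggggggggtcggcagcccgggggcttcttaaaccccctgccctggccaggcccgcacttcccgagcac
Pdlim5: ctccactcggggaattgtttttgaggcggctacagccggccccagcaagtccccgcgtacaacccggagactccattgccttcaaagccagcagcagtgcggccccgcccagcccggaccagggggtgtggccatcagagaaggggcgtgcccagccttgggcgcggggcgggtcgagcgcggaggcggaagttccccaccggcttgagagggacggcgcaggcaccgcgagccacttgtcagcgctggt
Mylk3: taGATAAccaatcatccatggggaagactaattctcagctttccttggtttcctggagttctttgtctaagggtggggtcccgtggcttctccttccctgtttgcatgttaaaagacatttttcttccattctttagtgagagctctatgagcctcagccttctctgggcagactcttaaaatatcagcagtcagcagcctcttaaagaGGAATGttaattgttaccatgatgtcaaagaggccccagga

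Flnc held an MCAT element 121 to 116 bases before its start, and Mylk3 held one 41 to 36 bases before its start. Mylk3 also held a GATA motif 248 to 244 bases upstream. No MCAT or GATA letters lay in the windows of Tpm2 and Pdlim5, or in that of Smyd1, which is not printed. Promoters were matched for 29 of the 36 members, out of 33469 of the same length. An MCAT element lay in 10 of the 29 (34.5%), beside 12.1% of all promoters. The members with one were Fhod3, Flnc, Myl3, Mylk3, Mypn, Tnni3k, Tnnt2, Tpm1, Trim54 and Trim63. A MEF2 site, searched by name on both strands, was found in 4 members (13.8%, beside 2.96%): Mybpc3, Myoz2, Synpo2l and Tnni3k. A CArG box, the site of serum response factor, was found in 3 (10.3%, beside 501 of all promoters): Ldb3, Myl3 and Nebl. GATA letters were in 27.6% of members, beside 23.5%, and E-box letters (CANNTG) in 72.4%, beside 65.5%. These matches are of letters only and are not independent of each other, since a promoter can hold several motifs.

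Thin filament members had a median log2 ratio of 0.20 in BMD over WT and 0.18 in DMD over WT, over the 8 counted. Tnnt2, cardiac troponin T, which ties the troponin complex to tropomyosin, was at 3450 CPM in WT, 3749 in BMD and 3717 in DMD. Tnni3, cardiac troponin I, the inhibitory subunit, was at 1377, 1972 and 1653 CPM. Its log2 ratio over WT was 0.52 for BMD (interval 0.48 to 0.56) and 0.26 for DMD (0.22 to 0.31), and that of DMD over BMD was -0.26 (-0.30 to -0.21). Of these values only that of Tnni3 in BMD over WT was past the fold. Free RNA was estimated to give 9.83% of the Tnni3 UMIs in BMD, against 2.49% in WT and 4.24% in DMD, and with free RNA subtracted the BMD ratio was 0.45. Tnnc1, the calcium-binding subunit, was at 147 CPM in WT, 181 in BMD and 183 in DMD. Its ratios over WT, 0.29 (0.17 to 0.42) for BMD and 0.31 (0.17 to 0.46) for DMD, stayed just inside the fold.

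Tnnt3, fast skeletal troponin T, had 7, 7 and 8 UMIs in cardiomyocyte-like nuclei, or 1.12, 1.11 and 2.13 CPM. After thinning to 1000 UMIs, it was seen in 0.0531%, 0.138% and 0.206% of these nuclei, below the 0.257%, 0.467% and 0.740% of endothelial-like nuclei. Those shares rest on the 389, 856 and 811 endothelial-like nuclei deep enough to thin. The Tnnt3 UMIs of cardiomyocyte-like nuclei were read as background. Free RNA was estimated at 127% (WT), 419% (BMD) and 193% (DMD) of them, more than were seen, so the estimate was too high for this gene. The gene was higher in fibroblast-like nuclei, at 141 CPM in WT, 186 in BMD and 139 in DMD.

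Tpm1, the main tropomyosin of the ventricle, was at 3446 CPM in WT, 4119 in BMD and 4101 in DMD. Both mutants stood above WT by a log2 ratio of 0.26 (0.23 to 0.28) and 0.25 (0.22 to 0.28), inside the fold. Tpm2 (ENSRNOG00000016731), beta-tropomyosin, was at 12.3 CPM in WT (77 UMIs), 33.2 in BMD (210 UMIs) and 35.9 in DMD (135 UMIs). It had the largest ratios of all members, 1.43 for BMD over WT (1.05 to 1.82) and 1.54 in DMD over WT (1.13 to 1.96), on few UMIs. DMD over BMD was 0.11 (-0.21 to 0.43), an interval that holds 0. Thinned to 1000 UMIs, 1.11% of WT, 3.31% of BMD and 2.98% of DMD cardiomyocyte-like nuclei had a Tpm2 UMI, against 0.514%, 0.234% and 1.23% of endothelial-like nuclei. Free RNA was estimated at 26.6%, 22.8% and 19.8% of the Tpm2 UMIs, and subtracting it gave ratios of 1.54 in BMD and 1.67 in DMD. Pericyte or smooth muscle-like nuclei held more Tpm2, with 70.5, 77.9 and 80.6 CPM. Fibroblast-like nuclei also held more, with 34.7, 45.9 and 53.6 CPM. In the cardiomyocyte-like nuclei, the 10 pericyte or smooth muscle markers summed to 1009, 1022 and 689 CPM and the 8 fibroblast markers to 203, 164 and 379 CPM. The part of either class in the Tpm2 ratios was not tested.

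Nebl, nebulette, which binds actin near the Z-disc, was at 1769, 1956 and 1898 CPM. Tmod1, the cap of the pointed filament end, was at 301 CPM in WT, 314 in BMD and 299 in DMD. Lmod3, a leiomodin that lengthens thin filaments, was at 35.4, 30.7 and 33.5 CPM. None of these 3 passed the fold. Lmod2, the cardiac leiomodin, had only 15, 14 and 10 UMIs and was left out of the counts.

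Thick filament members had median log2 ratios of 0.26 in BMD and 0.21 in DMD over WT, over 5 genes. Mybpc3, cardiac myosin-binding protein C, was at 1778 CPM in WT, 2122 in BMD and 2051 in DMD, above WT in both but inside the fold. Myl2, the regulatory light chain of the ventricle, was at 780, 807 and 873 CPM. Myl3 (ENSRNOG00000020955), the essential light chain of the ventricle, was at 667 CPM in WT, 1080 in BMD and 1088 in DMD. The 2 light chains thus differed, with Myl2 near its WT level and Myl3 above it in both mutants. The log2 ratio of Myl3 was 0.70 for BMD (interval 0.64 to 0.75) and 0.71 for DMD (0.64 to 0.77), and DMD over BMD was 0.01 (-0.05 to 0.07). In thinned counts, 48.6% of WT, 66.0% of BMD and 65.3% of DMD cardiomyocyte-like nuclei had a Myl3 UMI, against 2.57%, 6.66% and 7.15% of endothelial-like nuclei.

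Mylk3, the cardiac kinase of the regulatory light chain, went the other way, at 1272 CPM in WT, 954 in BMD and 1069 in DMD. Its log2 ratio was -0.42 for BMD over WT (-0.46 to -0.37) and -0.25 in DMD over WT (-0.31 to -0.20). DMD over BMD was 0.16 (0.11 to 0.22), inside the fold. Myo18b, an unconventional myosin needed to build sarcomeres, was at 423, 508 and 530 CPM. Both mutants were above WT, at 0.26 (0.19 to 0.34) and 0.33 (0.24 to 0.41), and the DMD value lay at the edge of the fold.

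Z-disc members had log2 ratios over WT from -0.13 to 1.08 in BMD and from -0.54 to 1.20 in DMD. Of the 11 counted, 3 were higher in BMD and 4 higher and 1 lower in DMD, beside 16.3% of all genes higher in BMD and 20.2% higher and 23.6% lower in DMD. Actn2, alpha-actinin, which cross-links thin filaments in the Z-disc, was at 1300 CPM in WT, 1326 in BMD and 1401 in DMD. Actn2 stayed inside the fold in both comparisons with WT.

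Pdlim5 (ENSRNOG00000016419), a PDZ and LIM domain protein that binds alpha-actinin, was at 2238 CPM in WT, 3999 in BMD and 5127 in DMD. Over WT its log2 ratio was 0.84 for BMD (interval 0.81 to 0.87) and 1.20 for DMD (1.16 to 1.23). DMD was also above BMD, by 0.36 (0.33 to 0.39), an amount inside the fold limit once libraries were scaled by trimmed means (TMM), where it was 0.29. A Pdlim5 UMI was seen in 83.1% of WT, 91.9% of BMD and 97.1% of DMD cardiomyocyte-like nuclei after thinning. The gene is used in many cell types, and 47.3%, 54.4% and 50.1% of endothelial-like nuclei had one.

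Pdlim3 (ENSRNOG00000012658), also called ALP, a relative that binds alpha-actinin as well, was at 1280 CPM in WT, 1544 in BMD and 2449 in DMD. The log2 ratio over WT was 0.27 for BMD (interval 0.23 to 0.31), inside the fold, and 0.94 for DMD (0.89 to 0.98). DMD over BMD was 0.67 (0.62 to 0.71), the largest in that comparison of the 34 members counted. Here the 2 mutant libraries differed most, with BMD close to WT and DMD apart. The share of cardiomyocyte-like nuclei with a Pdlim3 UMI after thinning was 67.3%, 72.7% and 84.1%, against 5.91%, 9.70% and 8.01% of endothelial-like nuclei. Ldb3, also called cypher, a further protein of this family, was at 2886, 2921 and 3398 CPM, with DMD above WT by 0.24 (0.20 to 0.27).

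Flnc (ENSRNOG00000007281), filamin C, an actin cross-linker that joins the Z-disc to the membrane, was at 97.4 CPM in WT, 206 in BMD and 179 in DMD. Its log2 ratio was 1.08 for BMD (interval 0.94 to 1.22) and 0.88 for DMD (0.72 to 1.04). DMD over BMD was -0.21 (-0.34 to -0.07), inside the fold. Des, desmin, the intermediate filament that links neighbouring Z-discs, was at 199, 253 and 228 CPM, with 0.35 for BMD (interval 0.24 to 0.46) and 0.20 for DMD (0.07 to 0.32). Both these genes of the load-bearing cytoskeleton depended on which cardiomyocyte-like nuclei were counted, as described below.

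Myoz2, calsarcin, which holds calcineurin at the Z-disc, was at 841 CPM in WT, 1033 in BMD and 1091 in DMD, with ratios of 0.30 (0.24 to 0.35) and 0.38 (0.32 to 0.44). Mypn, myopalladin, was at 610, 635 and 688 CPM. Synpo2 and Synpo2l, actin-binding partners of filamin and alpha-actinin, were at 3128, 3193 and 3456 CPM and at 96.0, 116 and 113 CPM. Apart from Myoz2 in DMD, none of these passed the fold.

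Cmya5, myospryn, a large protein at the costamere and Z-disc, was lower, at 1058 CPM in WT, 966 in BMD and 730 in DMD. The log2 ratio over WT was -0.13 for BMD (interval -0.18 to -0.08) and -0.54 for DMD (-0.60 to -0.47), the lowest of all members in DMD. DMD over BMD was -0.40 (-0.47 to -0.34). The share of nuclei with a Cmya5 UMI after thinning was 61.7%, 55.9% and 45.1%, against 8.74%, 11.7% and 6.66% in endothelial-like nuclei.

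M-band members were above WT in both mutants. Myom1, myomesin, which bridges thick filaments, was at 1045 CPM in WT, 1108 in BMD and 1259 in DMD. Myom2, M-protein, was at 714, 908 and 875 CPM. The Myom2 ratio was 0.35 for BMD (interval 0.29 to 0.40) and 0.29 for DMD (0.23 to 0.36), so that it passed the fold in BMD by a small margin.

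Of the assembly factors, Unc45b, the chaperone of the myosin head, was at 179 CPM in WT, 207 in BMD and 226 in DMD, with ratios of 0.21 (0.10 to 0.33) and 0.34 (0.21 to 0.47). Smyd1, a muscle methyltransferase that works with this chaperone, was at 641, 576 and 568 CPM, below WT in both but inside the fold. Fhod3, a formin that builds cardiac actin filaments, was at 4930, 4619 and 5093 CPM and did not pass it either.

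The 3 muscle RING-finger ubiquitin ligases did not move as one. Trim55 (MuRF2) was at 860 CPM in WT, 941 in BMD and 1222 in DMD. Its ratio over WT was 0.13 for BMD (interval 0.08 to 0.18) and 0.51 for DMD (0.45 to 0.56), and DMD over BMD was 0.38 (0.32 to 0.43). Trim63 (MuRF1), the ligase best known from muscle atrophy, was at 669, 687 and 677 CPM, and Trim54 (MuRF3) at 591, 545 and 553 CPM. Only Trim55 of the 3 passed the fold, in the DMD comparisons.

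Tnni3k, a cardiac kinase that binds troponin I, was at 3165 CPM in WT, 3370 in BMD and 2957 in DMD, inside the fold. Mlip, a lamin-interacting protein of muscle, was at 3141, 2611 and 2181 CPM. Its ratio was -0.27 for BMD (interval -0.30 to -0.24) and -0.53 for DMD (-0.56 to -0.49), and DMD over BMD was -0.26 (-0.30 to -0.22). Of these, only DMD over WT was past the fold. Cavin4, a caveola protein of muscle listed under its older name Murc, was at 27.6, 54.7 and 35.4 CPM. Its ratio was 0.99 for BMD (interval 0.72 to 1.26) and 0.36 for DMD (0.02 to 0.70), and DMD over BMD was -0.63 (-0.93 to -0.34).

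**Figure D2:**
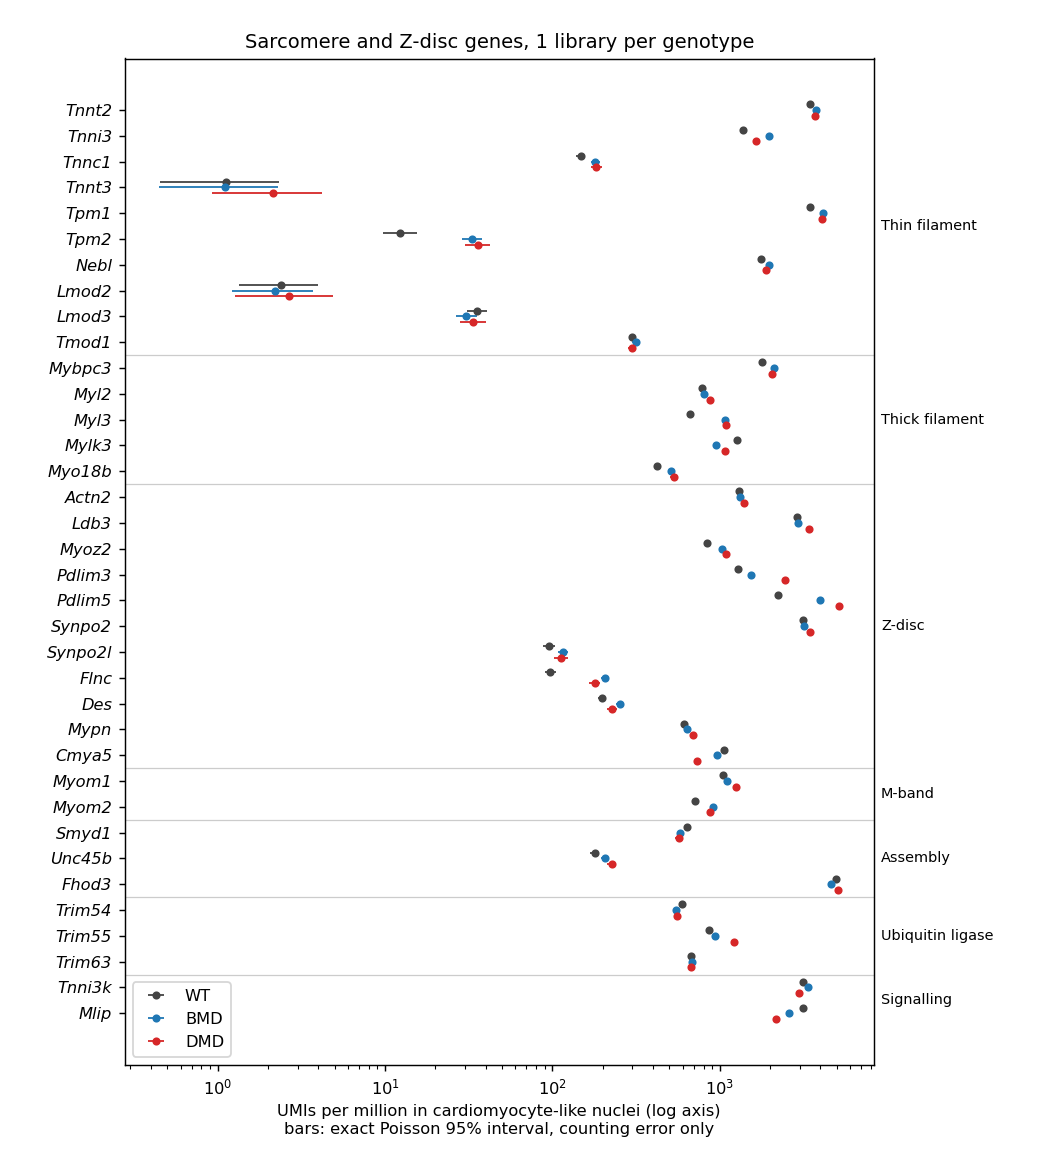
Level of each of the 36 members by role in the cardiomyocyte-like nuclei of each genotype, in CPM on a log axis, with exact Poisson 95% intervals. Myl3, Flnc, Tpm2 and Pdlim5 show WT apart on the left, and Cmya5 and Mlip show DMD on the left. Tnnt3 and Lmod2 lie near 1 to 3 CPM, with wide intervals.

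The mutant libraries were also set directly against each other. In DMD over BMD, 3 of 34 members (8.82%) were higher, beside 19.7% of all genes, and 1 (2.94%) was lower, beside 14.1%. The higher members were Pdlim3, Pdlim5 and Trim55, and the lower one was Cmya5. With TMM scaling, 1 member (Pdlim3) was higher and 3 (Cmya5, Mlip and Tnni3) were lower, so the split of calls depended on the scaling. TMM moves all genes by the same amount, and their median was -0.032 with it and 0.039 without it. The share of all genes past the fold limit was not taken under TMM. The median ratio of members was 0.02, beside 0.04 for all genes.

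Markers of other classes in the cardiomyocyte-like nuclei also differed between libraries. The 8 fibroblast markers summed to 203, 164 and 379 CPM in WT, BMD and DMD, with none of the 8 at 0, and the 8 endothelial markers to 107, 164 and 190 CPM, again with none at 0. Monocyte or neutrophil markers summed to 19.4, 19.8 and 72.3 CPM, with Cxcr2 and Fcnb at 0 in WT. The 6 endocardial markers summed to 188, 205 and 331 CPM and the 10 macrophage markers to 13.1, 19.9 and 27.7 CPM. The 10 T or B cell markers summed to 10.7, 12.3 and 16.2 CPM, so these lists too were highest in DMD. The lymphatic and the pericyte or smooth muscle lists were lowest in DMD. The 7 lymphatic markers summed to 246, 217 and 174 CPM, and the 10 pericyte or smooth muscle markers to 1009, 1022 and 689 CPM. The share of these nuclei among all nuclei, their depth and the free RNA estimate differed as well, as given above. The part of these differences in the member ratios was not tested beyond the subtraction of free RNA, under which the median ratio of members was 0.13 in BMD and 0.19 in DMD.

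At a finer resolution of 1.0 the cardiomyocyte-like nuclei split into 2 main clusters, which held the libraries in different proportions. One, led by Lsamp, Ky and Dhrs7c, had 1902 WT, 687 BMD and 635 DMD nuclei. The other, led by Xirp2, Hs3st2 and Tgfb2, had 106 WT, 802 BMD and 410 DMD nuclei. Median depth, over the nuclei of all libraries, was 2750 UMIs in the first and 4288 in the second. The part of depth in the differences between the clusters was not tested. With 1 library per genotype, a cell state and a property of the libraries that fill the cluster cannot be told apart. Levels are given as a description, since the clusters came from the same nuclei.

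Within each library, the second cluster held more of several Z-disc and cytoskeletal members. Flnc was at 79.9 CPM in the first and 318 in the second cluster of WT, at 120 and 255 in BMD and at 135 and 225 in DMD. Desmin followed it, with 182 and 407 CPM in WT, 178 and 294 in BMD and 201 and 254 in DMD. Pdlim5 was at 2093 and 4053 CPM in WT, 3184 and 4451 in BMD and 4916 and 5362 in DMD. For these 3 genes the gap between clusters was widest in WT and narrowest in DMD. Fhod3, Tnni3k and Mlip were lower in the second cluster of every library, by more in WT than in the mutants. In WT the log2 ratios of second over first were -0.71, -0.74 and -0.54. They were -0.23, -0.09 and -0.27 in BMD, and -0.10, -0.12 and -0.13 in DMD.

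The difference between genotypes was seen within both clusters for some members and in 1 of them for others. Pdlim5, Pdlim3 in DMD and Myl3 were above WT in each cluster. Myl3 was at 663, 1113 and 1097 CPM (WT, BMD, DMD) in the first cluster and at 718, 1066 and 1085 CPM in the second. Flnc was above WT in the first cluster and below it in the second, where its ratio was -0.32 in BMD and -0.50 in DMD. Desmin in BMD had ratios of -0.04 in the first cluster and -0.47 in the second, against 0.35 over both. Myo18b in DMD turned to -0.11 in the second cluster. Tpm2 had ratios of 0.77 in BMD and 1.02 in DMD in the first cluster, but 0.10 and 0.40 in the second, where WT had 18 UMIs. Pdlim5 kept its direction while its ratios fell from 0.61 in BMD and 1.23 in DMD to 0.14 and 0.40. Mlip in DMD was at -0.49 in the first cluster and -0.09 in the second, where its level was 2218 CPM in WT, 2432 in BMD and 2084 in DMD. Some members inside the fold over both clusters stood well above WT in the second. There Tnni3k was at 1948, 3301 and 2847 CPM (WT, BMD, DMD), although in DMD it was below WT over both clusters. Fhod3 was at 3108, 4350 and 4934 CPM in that cluster, and Tnnt2 at 2716, 3622 and 3582 CPM. The higher level of desmin in the BMD library was therefore not seen within either cluster, where 802 of its nuclei and 106 of WT lay in the second.

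**Figure D3:**
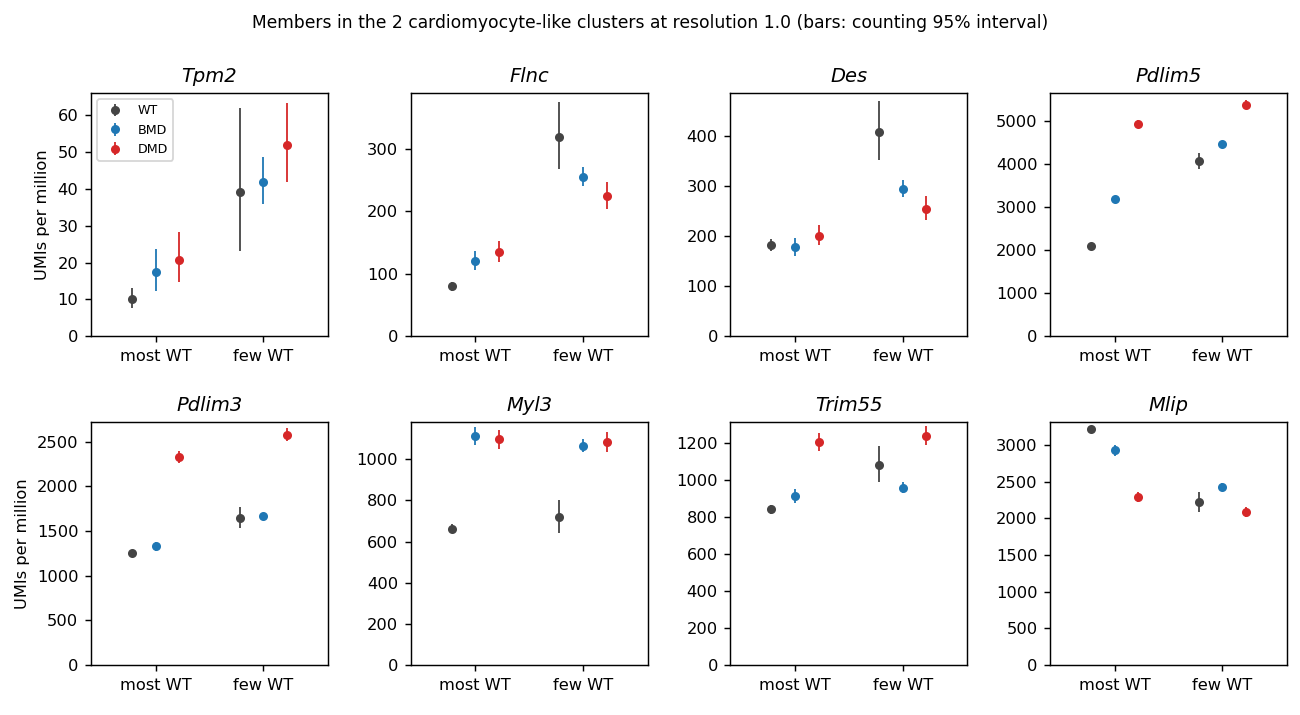
Levels of 8 members in the 2 cardiomyocyte-like clusters at resolution 1.0, the first with most WT nuclei (1902) and the second with few (106). Points are CPM in WT, BMD and DMD and bars are 95% counting intervals. Pdlim5, Pdlim3 in DMD and Myl3 lie above WT in both clusters, whereas Flnc and Des are highest in WT in the second.

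Across cell classes most members were highest in cardiomyocyte-like nuclei. Nebl was also found in endothelial-like nuclei, at 1231, 1590 and 1154 CPM (WT, BMD, DMD), and in lymphatic-like nuclei at 948, 1029 and 891 CPM. Tnnt3 and Tpm2 were highest outside the cardiomyocytes, as given above. Tmod1 was at 173, 142 and 160 CPM in fibroblast-like nuclei. A cluster of 160 monocyte or neutrophil-like nuclei, 32 of them from WT, held Tpm1 at 2788, 820 and 1336 CPM (WT, BMD, DMD) and Tnnt2 at 2957, 1188 and 1321 CPM, and a doublet caller marked 23.8% of it.

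**Figure D4:**
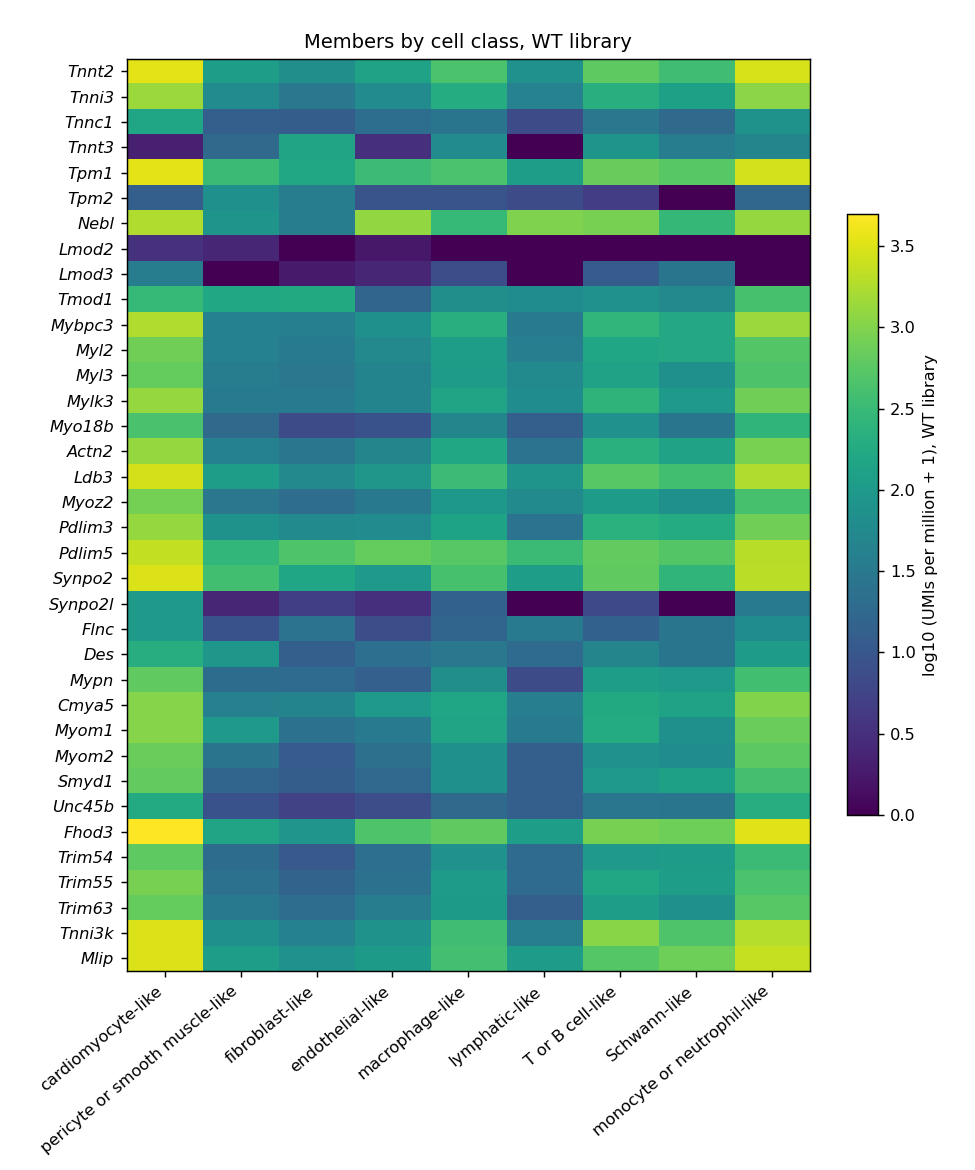
Level of the 36 members in each cell class of the WT library, as log10 of CPM plus 1. Most rows are brightest in the cardiomyocyte-like column, Nebl is also bright in endothelial-like nuclei, and Tnnt3 is brightest in fibroblast-like nuclei.

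Pdlim3 differed between genotypes in fibroblast-like nuclei as well, with larger ratios than in cardiomyocyte-like nuclei. These nuclei numbered 3518, 1644 and 2265 (WT, BMD, DMD), and Pdlim3 had 267, 691 and 1211 UMIs in them, or 55.1, 237 and 351 CPM. The log2 ratio over WT was 2.10 for BMD (interval 1.90 to 2.31) and 2.67 for DMD (2.48 to 2.87), and DMD over BMD was 0.57 (0.43 to 0.71). Because free RNA of cardiomyocytes reaches all nuclei, Pdlim3 was set against Tnnt2, which marks that RNA. Tnnt2 itself was at 65.3, 139 and 129 CPM in fibroblast-like nuclei, with log2 ratios over WT of 1.09 in BMD and 0.99 in DMD. For each Tnnt2 UMI, fibroblast-like nuclei held 0.845 Pdlim3 UMIs (WT), 1.70 (BMD) and 2.72 (DMD). In cardiomyocyte-like nuclei the same ratio was 0.371, 0.412 and 0.659, and in barcodes of free RNA 0.387, 0.280 and 0.403. Endothelial-like nuclei stayed near those values, with 0.444, 0.441 and 0.466. Fibroblast-like nuclei lay in a cluster of 6998 and another of 429, and both had the 2 mutants above WT, with 57.0, 248 and 365 CPM in the larger. The smaller had 152 CPM for BMD and 115 for DMD, against 10 UMIs in WT, an interval of 14.4 to 55.2 CPM. At resolution 1.0 all 4 fibroblast-like clusters did too, from 49.9 to 67.1 CPM in WT, 185 to 274 in BMD and 259 to 554 in DMD.

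**Figure D5:**
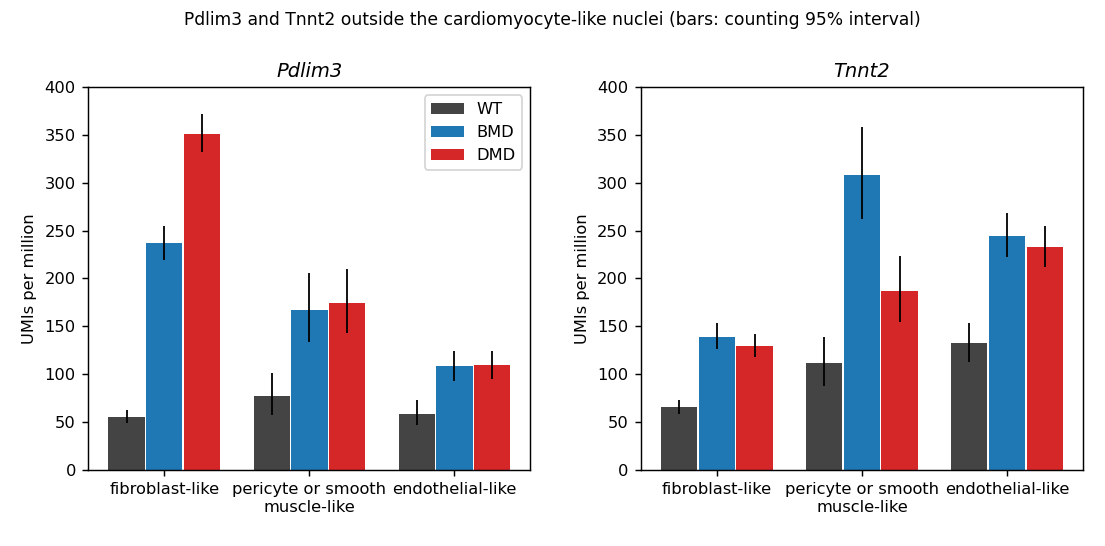
Pdlim3 and Tnnt2 in fibroblast-like, pericyte or smooth muscle-like and endothelial-like nuclei of WT, BMD and DMD, in CPM from 0, with 95% counting intervals. Pdlim3 in fibroblast-like nuclei stands at 55.1 (WT), 237 (BMD) and 351 (DMD), and Tnnt2, which marks free cardiomyocyte RNA, at 65.3, 139 and 129.

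Beyond the members, a list of 65 further sarcomere, costamere and filament assembly genes was described in the same nuclei. Of these, 64 were matched by symbol and 48 had at least 50 UMIs. The list was chosen with earlier results of these data known, and it holds Xirp2, which led the second cluster above. Its shares are therefore a description and cannot be read as an enrichment. The shares beside them are over all 10043 genes and were not matched in depth. In BMD over WT, 23 of 48 (47.9%) were higher and 3 (6.25%) lower, beside 16.3% and 25.1% of all genes. In DMD over WT, 26 (54.2%) were higher and 5 (10.4%) lower, beside 20.2% and 23.6%. The median log2 ratio was 0.28 in BMD and 0.39 in DMD. Past 1.5-fold in either comparison were 25 genes, 21 upwards and 4 downwards, or 25 of 48, beside 29.9% of all genes past it in either comparison (13.8% upwards and 16.5% downwards). In single comparisons over all genes, 8.15% were past 1.5-fold upwards and 10.3% downwards in BMD over WT, and 10.9% each way in DMD over WT. For DMD over BMD the same shares were 8.42% and 5.54%.

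Of these 25, some had their largest difference in BMD and others in DMD. Ankrd1, a titin-bound repressor that responds to stretch, was at 3778, 6480 and 6941 CPM in WT, BMD and DMD. Xirp2, which binds actin at the intercalated disc and Z-disc, was at 946, 2904 and 1659 CPM. Hspb1, a small heat shock protein, was at 61.7, 344 and 157 CPM, with log2 ratios of 2.48 for BMD (interval 2.32 to 2.64) and 1.35 for DMD (1.16 to 1.53). Xirp2, Hspb1 and Cryab, another small heat shock protein at 424, 830 and 639 CPM, were all highest in BMD, and DMD over BMD was -0.81, -1.13 and -0.38.

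Other genes of the list were highest in DMD. Flna, the widely used filamin A, was at 9.93, 36.0 and 58.8 CPM, on 62, 228 and 221 UMIs. Sorbs2, an adaptor at the Z-disc, was at 3832, 6580 and 8006 CPM. Pdlim7 was at 65.4, 91.2 and 142 CPM and Pdlim1 at 80.7, 85.0 and 126 CPM, both PDZ and LIM domain proteins. Synm, synemin, a partner of desmin, was at 7.69, 29.6 and 34.6 CPM. Also past 1.5-fold upwards in at least 1 comparison were Neb, Ankrd2, Mybpc2, Tpm3, Fhl1, Cfl2, Actn4, Tln1, Vim, Klhl41, Mylk and Filip1. Their log2 ratios over WT ran from -0.22 to 1.20 in BMD and from 0.28 to 1.18 in DMD. Vim rested on 82, 99 and 89 UMIs (WT, BMD, DMD) and Mylk on 61, 88 and 83. The part of other cell classes and of free RNA in the ratios of the further list was not tested.

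Lower past 1.5-fold in either comparison were 4 genes. Myom3, another myomesin, was at 24.4 CPM in WT, 11.2 in BMD and 10.1 in DMD. Fbxo32 (atrogin-1), a ubiquitin ligase of muscle atrophy, was at 371, 328 and 230 CPM, opposite in direction to Trim55 in DMD. Cavin1, a caveola coat protein, was at 32.4, 16.4 and 28.5 CPM, and Fhod1, a formin, at 20.2, 18.2 and 13.3 CPM.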

How the data were processed

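Single-nucleus RNA sequencing (10x Genomics 3′ v3.1 kit per the labels and the study's methods, although its results text names a 5′ technology, so the transcript end counted is uncertain) covered 1 library each of WT, BMD and DMD rat heart apex. The authors sorted DAPI-stained nuclei and ran Cell Ranger; the submitters' processing notes name the genome build rn6, and the counting of introns is not given in the sources used here. The deposited values are whole-number UMI counts per gene for all barcodes. The file listed for WT is an aggregate of the 3 libraries with a Cell Ranger 6.0.1 header, holding 76.1% of the UMIs of the separate BMD file and 92.9% of the DMD one, whose headers name Cell Ranger 4. For the same BMD and DMD barcodes, no entry of the aggregate was above that of the separate file, so their counts were reduced in it. Whether WT counts were reduced too cannot be seen, as WT has no separate file. WT was read from its barcodes in the aggregate and the mutants from the separate files. Any effect of such a reduction or of a different counting version therefore cannot be told apart from genotype. Nuclei were the barcodes with most UMIs, up to the number in the methods, the shallowest holding 513 (WT), 525 (BMD) and 546 (DMD) UMIs.

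Nuclei were clustered with scanpy 1.11.5 and igraph 0.11.9 (2000 variable genes, 30 components, 15 neighbours, Leiden resolution 0.5), leaving out the members, the genes the study names for cardiomyocytes, and mitochondrial and sex genes. This gave 15 clusters. A class name needed 3 markers that reached 2 times the level of other nuclei after adding 5 CPM, with at least 10 UMIs, and names are rebuilt here, not the authors'. Doublets were left in, and Scrublet marked 1.84% of the cardiomyocyte-like nuclei. UMIs were summed per library and divided by the total of the class, which was 6242799 in WT, 6326226 in BMD and 3760340 in DMD for cardiomyocyte-like nuclei. Ratios carry exact conditional (Clopper-Pearson) 95% intervals without a pseudocount, and levels exact Poisson ones (scipy 1.17.1). Shares of nuclei were taken after thinning each to 1000 UMIs, which left out 124 WT, 46 BMD and 77 DMD cardiomyocyte-like nuclei. Of the endothelial-like nuclei it left out 1145 WT, 649 BMD and 1070 DMD and kept 389, 856 and 811, so their shares come from the deeper ones. Free RNA was read from barcodes with at most 50 UMIs. Its amount was set by the fibroblast, endothelial, macrophage, lymphatic and T or B cell markers seen in cardiomyocyte-like nuclei. The estimate is too high where these nuclei make such transcripts themselves, which was not tested. The ratio functions were tested on simulated data. TMM factors came from edgeR 4.0.16.

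Every member matched by symbol is named, with ratios for those past the fold limit (log2 ratio of 0.32), and genes of the further list past 1.5-fold. Members, lists and tests were chosen with earlier results of these data known. The alternatives were deeper nuclei, doublet or mitochondrial filters, other clusterings, thinning, free RNA subtraction, TMM, the mean over nuclei, all nuclei, the aggregate's counts, 5 CPM added, and other limits on UMIs and fold.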

Additional observations from a re-analysis of the deposited data

Results flagged for a closer look

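Values outside the cardiomyocyte-like nuclei were listed here where a member had at least 50 UMIs in a class, held at least 2 times as many UMIs per Tnnt2 UMI there as in cardiomyocyte-like nuclei and in free RNA barcodes of every library, and had a log2 ratio over WT of at least 1 (at least 2-fold) in both mutants. They were 3 members in 2 classes. In all, 19 pairs of member and class met the conditions other than the ratio over WT, and 10 of these stood above WT in both mutants. Apart from the 3 listed, 7 of the 10 did so by less than 2-fold in at least 1 mutant. The rest of the 19 were not above WT in both, such as Tmod1 and Flnc in fibroblast-like nuclei and Nebl in endothelial-like nuclei. The share of all genes at least 2-fold above WT in both mutants was not taken in these classes.

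Pdlim3 in fibroblast-like nuclei had log2 ratios over WT of 2.10 in BMD and 2.67 in DMD. Desmin in fibroblast-like nuclei had 1.29 for BMD (interval 0.80 to 1.79) and 1.32 for DMD (0.85 to 1.81), on 59, 87 and 105 UMIs (WT, BMD, DMD). Its UMIs per Tnnt2 UMI there were 0.187, 0.214 and 0.235, against 0.0910, 0.0916 and 0.0994 in free RNA barcodes. In fibroblast-like nuclei Tnnt2, which marks free cardiomyocyte RNA, itself had log2 ratios of 1.09 in BMD and 0.99 in DMD over WT. Tpm1 in pericyte or smooth muscle-like nuclei had 1.42 for BMD (interval 1.18 to 1.66) and 1.17 for DMD (0.93 to 1.41), at 326 CPM in WT, 870 in BMD and 730 in DMD. Tnnt2 itself had 1.47 in BMD and 0.75 in DMD over WT in these nuclei. The UMIs of Tpm1 per Tnnt2 UMI there were 2.93, 2.83 and 3.91. At resolution 1.0 a cluster led by Myh11 and Acta2 held 72 WT, 72 BMD and 98 DMD nuclei, with 33.1% marked as doublets. A larger one led by Rgs5 held 625, 378 and 440. Tpm1 was not split between them, so the part of their proportions in its ratios was not tested. These intervals cover counting error in 1 library each, and the part of free RNA in the differences of Des and Tpm1 was not tested.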

How the results depend on the processing

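No paired analysis was possible because each genotype had 1 library, and no replicate could be left out. The 9 summaries of members (the median ratio and the counts past the fold limit, for BMD over WT, DMD over WT and DMD over BMD) moved by less than a fixed limit (0.05 for the median in BMD over WT and 0.06 in the other comparisons, the median counting error of a member, and 1.5 times for a count) when shallow nuclei, doublets or mitochondria-rich nuclei were removed, at resolution 1.0, with members left in the clustering, with free RNA subtracted, with the aggregate's counts and with 5 CPM added. Thinning gave 2 lower in BMD. TMM scaling gave a median of -0.05 for DMD over BMD, beside -0.032 over all genes, with 1 higher and 3 lower. The mean over nuclei gave 2 lower in DMD over BMD. At 1.5-fold the counts were 4 higher and 0 lower in BMD over WT, beside 8.15% and 10.3% of all genes. They were 5 and 0 in DMD over WT, beside 10.9% each way, and 1 and 0 in DMD over BMD, beside 8.42% and 5.54%. In sums over all nuclei the share of cardiomyocytes enters. There BMD over WT had a median of 0.34 with 18 higher and 0 lower. DMD over WT had -0.054 with 5 and 7, and DMD over BMD -0.44 with 1 and 26. Over all genes the medians of these sums were -0.077, -0.008 and 0.066. The share of all genes past the fold limit was not taken for these sums, TMM scaling, thinning or the mean over nuclei. In the sums over all nuclei, Myo18b in DMD over WT was -0.009, and Pdlim5 and Trim55 in DMD over BMD were -0.094 and -0.15.

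Alternatives chosen after seeing the data were the clusters at resolution 1.0, the Gadd45g-led cluster counted in, and genes with at least 1000 UMIs, and the last 2 moved none of the 9 past that limit. The cluster with most WT nuclei gave 3 lower in DMD over BMD and a desmin ratio of -0.038 in BMD over WT. The cluster with few WT nuclei gave 12 higher in BMD over WT, and a median of 0.30 with 17 higher and 4 lower in DMD over WT. Over all genes its medians were -0.099 in BMD and -0.073 in DMD over WT. The share of all genes past the fold limit was not taken in either cluster. In the cluster with few WT nuclei, Flnc was at -0.32 in BMD and -0.50 in DMD over WT. Des was at -0.47 in BMD and Myo18b at -0.11 in DMD over WT. The causes of these moves were not tested. Depth limits Tpm2, Lmod2, Lmod3 and Tnnt3 most.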

Other observations

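A cluster led by Gadd45g, Pgam2, Nppb and Mb was left unnamed and out of the cardiomyocyte-like nuclei. It held 63 WT nuclei (0.632% of that library), 110 BMD (1.62%) and 232 DMD (2.94%), with a mean of 35.7%, 40.4% and 18.7% mitochondrial UMIs. Members summed to 38460, 39912 and 32134 CPM in it, below the cardiomyocyte-like nuclei of each library. CPM is taken over all UMIs, mitochondrial ones included, and their mean share was far smaller in the cardiomyocyte-like nuclei of each library. Sums without mitochondrial UMIs were not taken, so the part of this share in the lower member sums was not tested. The nuclei of the Gadd45g-led cluster were also shallower, with medians of 1425, 1309 and 772 UMIs.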
